A study of Mus musculus with 12 samples.

Results

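Cytotoxic lymphocytes kill by emptying secretory granules onto a target cell. The granules hold granzymes, serine proteases that enter the target through pores made by perforin, packed on the proteoglycan serglycin. NK cells, cytotoxic T cells and innate lymphoid cells of group 1 are known for these genes, and IL2 and IL15, read through the receptor chain encoded by Il2rb, are known to raise them. Granzymes A, B and C, perforin (Prf1) and Fas ligand (Fasl) are the effectors among the 10 genes described here. Serglycin (Srgn), the granule membrane protein gene Nkg7 and the cathepsin gene Ctsw encode other granule or secretory pathway proteins. Serpinb9 encodes an intracellular inhibitor of granzyme B, and Il2rb the receptor chain. The 10 genes were chosen by name among 47069 genes of the table, and each name had 1 row.

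Expression was measured by RNA sequencing of bulk mouse B cell precursors grown from hematopoietic stem cell cultures in Iscove's medium with IL7, in 12 libraries and 4 groups of 3. The β-catenin group (libraries 244, 255 and 262) came from Mb1-Cre x Catnb lox(ex3) mice. Mb1-Cre acts from early B lineage stages and removes exon 3 of the β-catenin gene, which leaves a form of the protein that is not marked for destruction by the kinase GSK3. These cells were sorted on B220, a surface form of CD45 that B lineage cells carry. So were the sorted controls (242, 249 and 251), which the labels call WT (wildtype). The labels state neither the Cre status of these controls nor the animals behind a library. The inhibitor group (242, 249 and 251) was wildtype cells kept overnight with 40 nM LY2090314, an inhibitor of GSK3, and the untreated group (242, 249 and 251) wildtype cells kept without it, both unsorted. No age or strain of the mice is stated in the labels. Nor do the labels say whether each library stands for its own animal, and p-values therefore measure the spread among these libraries, which may be technical.

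Values are FPKM, counted fragments scaled to gene length and to the library's total, which was 31.9 M to 49.8 M fragments (M for mega). Library 244 stood apart from the other β-catenin libraries, with a summed level of 12 B cell precursor markers of 51.9 FPKM, against 1687 and 1388 FPKM in libraries 255 and 262. It also held both Xist and the Y-linked Ddx3y (169 and 19.5 FPKM), whereas in each of the other libraries 1 of these was below 1 FPKM. Myeloid RNA marked the unsorted libraries numbered 249, with 12 monocyte, macrophage and neutrophil markers summing to 7804 FPKM in the inhibitor and 7866 FPKM in the untreated library. For the granule genes and the gene lists, counts of calls are given with and without these libraries. In bulk RNA, fewer cells of a type and less RNA per cell cannot be told apart.

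All 10 genes lie on autosomes in GRCm38. Gzma (ENSMUSG00000023132) lies on the minus strand at chr13:113093825-113100981. Gzmb (ENSMUSG00000015437, chr14:56258838-56262260) and Gzmc (ENSMUSG00000079186, chr14:56231441-56234656) are neighbours on the minus strand of chromosome 14, at one end of a cluster that also holds Gzmd, Gzme, Gzmf, Gzmg, Gzmn and mast cell protease genes. Gzmc and the other granzymes of that cluster are close copies, so how reads were split among them is uncertain. Ctsw (chr19:5465043-5468507, minus strand) overlaps Fibp on the other strand, and without strand the reads of both cannot be told apart where they overlap.

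The start regions of the 3 granzymes are shown because these genes share a locus in part and moved together in the β-catenin group, yet not in the unsorted cultures. Each runs from 250 bases before to 50 bases after the annotated start, 5′ to 3′ on the gene's strand, from RefSeq on GRCm38.p6. Capitals mark TGTGGT or its reverse ACCACA, letters that RUNX transcription factors are known to bind. The regions are chr13:113100932-113101231 for Gzma, chr14:56262285-56262584 for Gzmb and chr14:56234608-56234907 for Gzmc, all on the minus strand.
Gzma: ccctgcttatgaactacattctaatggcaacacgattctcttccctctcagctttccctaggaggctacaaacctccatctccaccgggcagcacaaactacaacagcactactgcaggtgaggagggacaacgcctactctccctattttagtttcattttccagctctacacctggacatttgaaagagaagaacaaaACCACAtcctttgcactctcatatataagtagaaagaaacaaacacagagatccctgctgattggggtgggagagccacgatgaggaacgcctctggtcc
Gzmb: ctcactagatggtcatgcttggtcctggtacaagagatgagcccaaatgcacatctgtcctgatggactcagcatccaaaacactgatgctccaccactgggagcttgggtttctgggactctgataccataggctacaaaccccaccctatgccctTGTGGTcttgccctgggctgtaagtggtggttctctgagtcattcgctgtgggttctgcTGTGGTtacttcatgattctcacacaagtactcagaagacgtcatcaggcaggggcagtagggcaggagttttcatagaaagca
Gzmc: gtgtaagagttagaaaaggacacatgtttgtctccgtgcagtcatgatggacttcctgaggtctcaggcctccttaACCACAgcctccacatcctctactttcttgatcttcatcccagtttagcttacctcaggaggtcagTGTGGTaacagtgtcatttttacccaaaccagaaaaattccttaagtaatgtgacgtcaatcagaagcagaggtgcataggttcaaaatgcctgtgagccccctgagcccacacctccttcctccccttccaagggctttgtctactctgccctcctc
Starting from the annotated start, the match begins 50 bases upstream in Gzma, 93 and 34 bases upstream in Gzmb, and 174 and 108 bases upstream in Gzmc. Promoters of 8 of the 10 genes were in the RefSeq table (9 promoters, since Srgn has 2). The RUNX letters stood in 7 of the 9, that is in 7 of the 8 genes, against 16.8% of 32851 promoters of the same length, on either strand. The TCF/LEF letters CTTTGA, bound by the nuclear partners of β-catenin, stood in 0 of the 9, against 16.0% of all promoters. The T-box letters GGTGTG stood in 4 of the 9, against 19.0% of all promoters. These 3 motifs were chosen after the sequences had been searched, and no binding was measured, so the matches describe letters and not bound sites.

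B220-sorted precursors with and without stabilised β-catenin were compared first. Of the 10 granule genes, 9 rose in the β-catenin group and 1, Prf1, was not called (limma on log2(FPKM + 1), adjusted p under 0.05). Over all 12813 tested genes, 18.6% were called higher and 17.7% lower. Every one of the 10 had its lowest β-catenin library above its highest sorted control, a pattern that 26.5% of tested genes showed in the same direction (29.4% in the other). Gzma, Prf1 and Fasl passed the filter of 1 FPKM in 3 libraries only through β-catenin libraries, so they had to differ to be tested. The other 7 genes exceeded 1 FPKM in all 3 sorted controls as well, and all 7 rose. Srgn differed least and Gzma most on the log2 scale. The median log2FC of the 10 genes was 5.23, against -0.02 over all tested genes. After centring each library on its median these medians were 5.12 and -0.14, and 9 of the 10 genes were called again. Among all genes, centring changed the calls from 2387 higher and 2269 lower to 1932 higher and 3291 lower, and quantile normalization gave 1993 higher and 2891 lower.

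**Figure D1:**
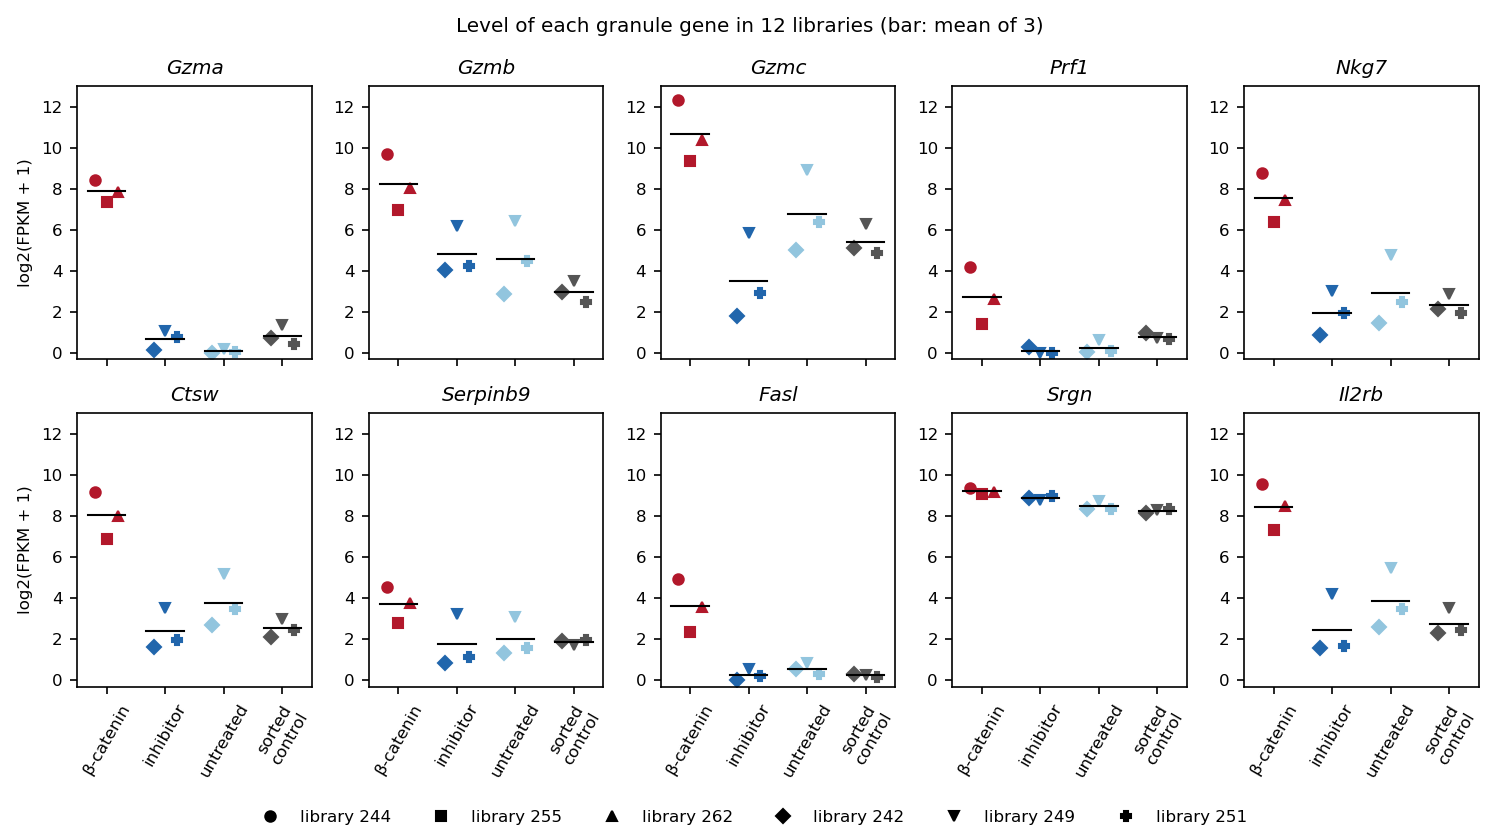
Level of each of the 10 genes as log2(FPKM + 1), with 1 point per library and a bar at the mean of 3 libraries. All 3 β-catenin libraries lie above all 3 sorted controls in each panel. Srgn is above 8 in every library, and Prf1 is below 1 in every library outside the β-catenin group.

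Granzyme A, a tryptase that cuts after basic residues, stood at 342, 161 and 231 FPKM in β-catenin libraries 244, 255 and 262, against 0.666, 1.53 and 0.357 FPKM in sorted controls 242, 249 and 251. Its lowest β-catenin level was 105-fold above its highest control level. It rose by 7.03 ± 0.34 on the log2 scale (log2FC ± SE of limma, n = 3 each, adjusted p = 0.000328). The controls held 29, 56 and 10 counted Gzma fragments, and the β-catenin libraries 14130, 7045 and 6777.

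Granzyme B, which cuts after aspartate and activates caspases, stood at 829, 122 and 264 FPKM in the β-catenin libraries, against 6.82, 10.4 and 4.57 FPKM in the sorted controls. The groups did not overlap, with a gap of 11.8-fold between lowest β-catenin and highest control library. Gzmb rose by 5.24 ± 0.69 (log2FC ± SE, n = 3 each, limma adjusted p = 0.00454). Granzyme C, a mouse granzyme of the same locus, was the highest of the 3 granzymes in every sorted library. It had 5086, 648 and 1306 FPKM in the β-catenin libraries, against 33.4, 76.7 and 28.0 FPKM in the sorted controls, and rose by 5.25 ± 0.79 (log2FC ± SE, n = 3 each, limma adjusted p = 0.00643). Unlike Gzma, Gzmc was well above the detection limit in the controls, where 1547, 2981 and 835 fragments were counted.

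The 3 granzymes therefore made up different mixtures. Gzmc took 69.6% to 81.3% of the summed FPKM of the 3 in β-catenin libraries, against 81.7% to 86.5% in sorted controls. The share of Gzma was 5.47% to 17.3% in β-catenin libraries and 1.08% to 1.73% in sorted controls, so Gzma gained share in all 3 β-catenin libraries. Gzmb kept a share of 13.1% to 14.6% in β-catenin libraries, within the range of 11.7% to 16.7% in the controls. No test was made of these shares.

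Perforin, without which granzymes do not enter the target, was the lowest of the 10 genes in every β-catenin library. It stood at 17.1, 1.63 and 5.18 FPKM there, against 0.942, 0.644 and 0.594 FPKM in the sorted controls. The groups did not overlap, but library 255 was 1.73-fold above the highest control, and Prf1 was not called (log2FC 1.95 ± 0.67 SE, n = 3 each, limma adjusted p = 0.0648). It was called with a pseudocount of 0.1 (adjusted p = 0.0438) and in a fit of all 12 libraries (0.0182). Per length, Prf1 stood at 1.34% to 2.07% of the Gzmb level in β-catenin libraries and at 6.19% to 13.8% in sorted controls.

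Fas ligand, a membrane protein that kills through the receptor FAS, stood at 29.3, 4.08 and 11.1 FPKM in β-catenin libraries, against 0.258, 0.205 and 0.107 FPKM in sorted controls. The controls held 15, 10 and 4 fragments, near the limit of counting. Fasl rose by 3.37 ± 0.62 (log2FC ± SE, n = 3 each, limma adjusted p = 0.0109), a value that the pseudocount of 1 FPKM holds down. Its call ended without sorted control 251 (adjusted p = 0.0542) and with voom on recovered fragments (0.0596).

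Nkg7, a membrane protein of cytotoxic granules needed for their release, stood at 439.6, 81.2 and 176 FPKM in β-catenin libraries, against 3.41, 6.34 and 2.92 FPKM in sorted controls. It rose by 5.21 ± 0.61 (log2FC ± SE, n = 3 each, limma adjusted p = 0.00353). Cathepsin W, a papain-like protease of NK and cytotoxic T cells, stood at 583, 119 and 254 FPKM in β-catenin libraries and at 3.40, 7.02 and 4.47 FPKM in sorted controls. Ctsw rose by 5.50 ± 0.57 (log2FC ± SE, n = 3 each, limma adjusted p = 0.00273). Both genes kept at least a 12.8-fold gap between the groups.

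Serglycin, the core protein that holds granzymes and mast cell proteases in granules, was abundant in every group. It stood at 666, 548 and 576 FPKM in β-catenin libraries, against 287, 313 and 322 FPKM in sorted controls. With this narrow spread a difference of 0.95 ± 0.10 (log2FC ± SE, n = 3 each) was called (limma adjusted p = 0.00281), so Srgn rose 1.94-fold by its means. Srgn was the only one of the 10 above 200 FPKM in every library of the study.

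Serpinb9, which blocks granzyme B in the cytosol of the cells that make it, stood at 22.1, 5.94 and 12.7 FPKM in β-catenin libraries, against 2.85, 2.29 and 2.94 FPKM in sorted controls. It rose by 1.82 ± 0.42 (log2FC ± SE, n = 3 each, limma adjusted p = 0.0217). That call was lost without library 262 (adjusted p = 0.0735), without sorted control 242 (0.0718), 249 (0.0789) or 251 (0.0778), with voom (0.0584) and in a fit of all 12 libraries (0.0568). Il2rb, the β chain shared by the IL2 and IL15 receptors, stood at 761, 158 and 364 FPKM in β-catenin libraries, against 3.89, 10.5 and 4.46 FPKM in sorted controls. It rose by 5.71 ± 0.62 (log2FC ± SE, n = 3 each, limma adjusted p = 0.00286).

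**Figure D2:**
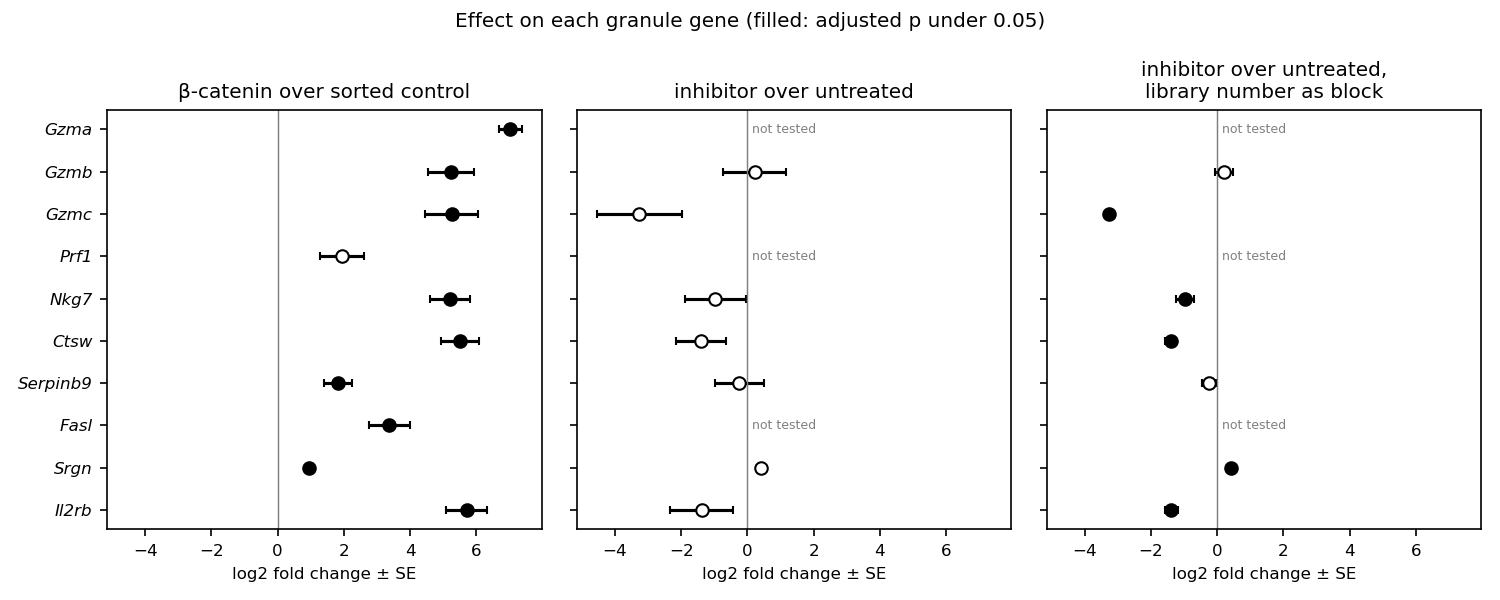
Log2 fold change with its standard error for each of the 10 genes, filled where the adjusted p is under 0.05. The β-catenin group has 9 filled genes, the inhibitor group none, and 5 once the library number enters as a block; Gzma, Prf1 and Fasl could not be tested in the unsorted groups.

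Without library 244, 8 of 8 tested granule genes rose, and 5002 genes were called in either direction over all tested genes. That total is not split by direction here, so it is no share to set against the 8. Gzma reached 1 FPKM only in libraries 255 and 262 and in sorted control 249 (1.53 FPKM). It therefore had to be high in both β-catenin libraries to be tested. Prf1 and Fasl were below 1 FPKM in all controls and could not pass the filter. A filter of 2 libraries, chosen after seeing the data, admits Prf1 and Fasl only because both remaining β-catenin libraries are high, so their calls under it are not counted. With voom on recovered fragments 7 of 10 rose, and Prf1, Fasl and Serpinb9 were not called. Over all tested genes voom called 2055 higher and 2097 lower.

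Within the β-catenin group all 10 genes had the same order, highest in library 244, then 262, then 255. The share of all tested genes with this order was not counted, so the order is not particular to these genes by any measure given here. The step from 255 to 244 differed between genes, from 1.22-fold for Srgn and 2.12-fold for Gzma to 10.5-fold for Prf1, with a median of 5.15-fold. The 10 NK cell and ILC1 markers kept that order too, in 10 of 10 genes and with a median step of 4.92-fold, while 6 of 12 T cell markers did. The summed NK and ILC1 markers were 1521, 285 and 583 FPKM in libraries 244, 255 and 262, against 8.92 to 18.8 FPKM in sorted controls, where 5 to 7 of the 10 markers were under 1 FPKM and Klra8 was at 0 in each. The 12 T cell markers summed to 1133, 679 and 889 FPKM in these β-catenin libraries and to 108 to 124 FPKM in sorted controls, and Cd4 stayed under 0.3 FPKM in all 6. The 10 mast cell and basophil markers summed to 1005, 234 and 791 FPKM in these β-catenin libraries, against 26.7 to 66.7 FPKM in sorted controls. Sums of 12 monocyte, macrophage and neutrophil markers were 736, 121 and 354 FPKM, against 13.8 to 33.0 FPKM. Those of 8 ILC2 and ILC3 markers were 107, 26.9 and 52.4 FPKM, against 3.05 to 4.94 FPKM. All these sums had the order 244, 262, 255. The 10 plasmacytoid dendritic cell markers did not, with 276, 264 and 327 FPKM against 410 to 446 FPKM. Of the 7 tested, 2 rose and 2 fell. Irf8 had 84.6 to 98.6 FPKM against 294 to 323 FPKM, and Ccr9 32.1 to 38.0 FPKM against 0.0817 to 0.276 FPKM. Single genes weighed heavily in other sums too. In libraries 244, 255 and 262, Kit gave 599, 169 and 271 FPKM of the mast cell sums. Ly6c2 gave 81.0, 86.1 and 248 FPKM of the monocyte, macrophage and neutrophil sums. The 12 B cell precursor markers were lower in each β-catenin library (51.9 to 1687 FPKM) than in the sorted controls (5876 to 6209 FPKM). The part of these cell types in the levels of the granule genes was not tested.

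**Figure D3:**
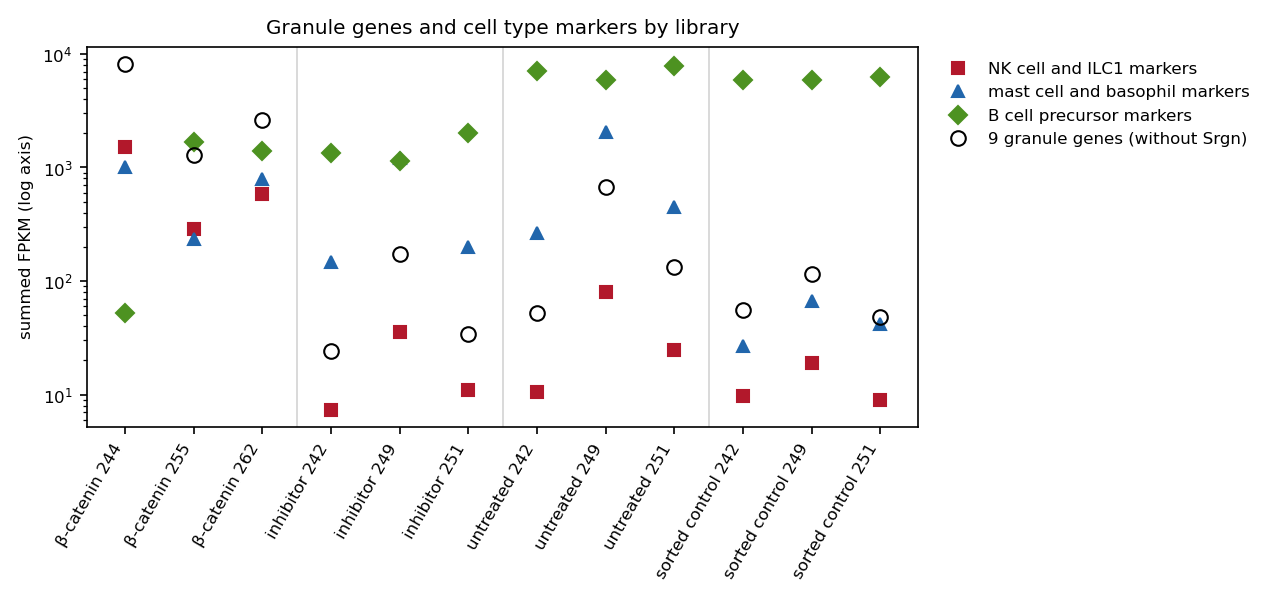
Summed FPKM per library on a log axis, for 9 of the 10 granule genes (all but Srgn) and for markers of NK cells and ILC1, of mast cells and basophils, and of B cell precursors. The granule sum is 1301 to 8109 FPKM in β-catenin libraries and 48.4 to 116 FPKM in sorted controls, and the NK and ILC1 sum is 285 to 1521 FPKM in β-catenin libraries and 8.92 to 18.8 FPKM in sorted controls.

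Other genes of the pathway were counted by list in the same fit, in which 18.6% of all tested genes rose and 17.7% fell. None of the 7 other granzyme genes passed the filter. Gzmd had 149 fragments in library 244, against at most 1 in the other sorted libraries, and Gzme had 55, likewise against at most 1. Among proteases and inhibitors of granules, 7 of 10 tested rose and 0 fell, led by the granule cystatin gene Cst7 (log2FC 3.29, adjusted p = 0.00251), Ctsh (3.24, 0.0197), and the serpin genes Serpinb6b (2.68, 0.00563) and Serpinb6a (1.74, 0.0286). Of the genes of granule transport and exocytosis, 9 of 14 rose and 0 fell. They included the fusion protein gene Stx11 (2.48, 0.0205), Arl8b (1.71, 0.00889), the docking GTPase gene Rab27a (1.57, 0.00141) and the priming factor gene Unc13d (1.35, 0.0084). The median log2FC was 1.14 over the tested proteases and inhibitors and 0.49 over the exocytosis genes, against -0.02 over all tested genes.

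Among death ligands, their receptors, caspases and cytokines, 7 of 11 rose and 0 fell. The TNF receptor genes Tnfrsf1a (log2FC 4.67, adjusted p = 0.0017) and Tnfrsf1b (1.33, 0.00345), lymphotoxin β (Ltb, 2.32, 0.0252) and TRAIL (Tnfsf10, 1.58, 0.0353) led that list. Of the transcription factors known from cytotoxic and innate lymphocytes, 13 of 14 rose and 1, Zeb2, fell. Gata3 (4.48, 0.00124), Id2 (4.32, 0.00493), Tbx21 (T-bet; 4.26, 0.00281) and Tox (4.19, 0.00227) changed most. Gata3, Tbx21, Tox, Eomes, Prdm1 and Ikzf2 were under 1 FPKM in all sorted controls, as were Stx11, Il18r1 and Crtam of other lists. These genes had to be high in the β-catenin libraries to be tested, which also bears on the list counts and medians. Of the receptors and kinases of IL2, IL15 and related cytokines, 9 of 12 rose and 0 fell, with the IL18 receptor genes Il18r1 (5.01, 0.000377) and Il18rap (4.10, 0.0056) and the IL12 receptor genes Il12rb2 (4.20, 0.00371) and Il12rb1 (2.36, 0.0179) ahead. That list also held the cytokine genes Il2 and Il15. The list of surface genes and chemokines of killer cells, which also held Hpse and the proteoglycan genes Vcan, Bgn and Dcn, rose in 10 of 11. Among them were Cd7 (5.86, 0.00281), Xcl1 (5.53, 0.00399), Ccl5 (5.52, 0.00247) and Cd226 (4.98, 0.00371). The mast cell chymase genes Cma1 (3.65, 0.0322) and Mcpt4 (3.38, 0.0172), which lie in the Gzmb and Gzmc cluster, were the 2 of its 8 other proteases that could be tested, and both rose. Without library 244, 9 of 10 tested proteases and inhibitors, 8 of 13 exocytosis genes, 8 of 11 receptors and kinases and 9 of 10 surface and chemokine genes rose, with 0 lower in each list. Of the death ligand list 6 of 11 then rose and 2 fell, and of the transcription factors 7 of 8 rose and 1 fell. With voom 4 of 10 proteases and inhibitors, 7 of 14 exocytosis genes, 6 of 11 of the death ligand list, 11 of 14 transcription factors, 8 of 12 receptors and kinases, 8 of 11 surface genes and 0 of 2 locus neighbours rose. Voom lost the calls of Cma1, Ctsh, Il12rb1, Mcpt4, Serpinb6a and Stx11 (adjusted p 0.0525 to 0.125). Median log2FCs were 0.57 for the death ligand list, 2.73 for the transcription factors, 2.07 for the receptors and 4.70 for the surface genes. All these p-values are adjusted over all tested genes. The calls of Cma1, Mcpt4, Ctsh, Serpinb6a, Stx11, Ltb, Tnfsf10 and Il12rb1 were all lost without sorted control 242 (adjusted p 0.0557 to 0.0950) and without 251 (0.0687 to 0.121), 6 of them without 249 (0.0570 to 0.112) and 7 without library 262 (0.0516 to 0.1002).

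**Figure D4:**
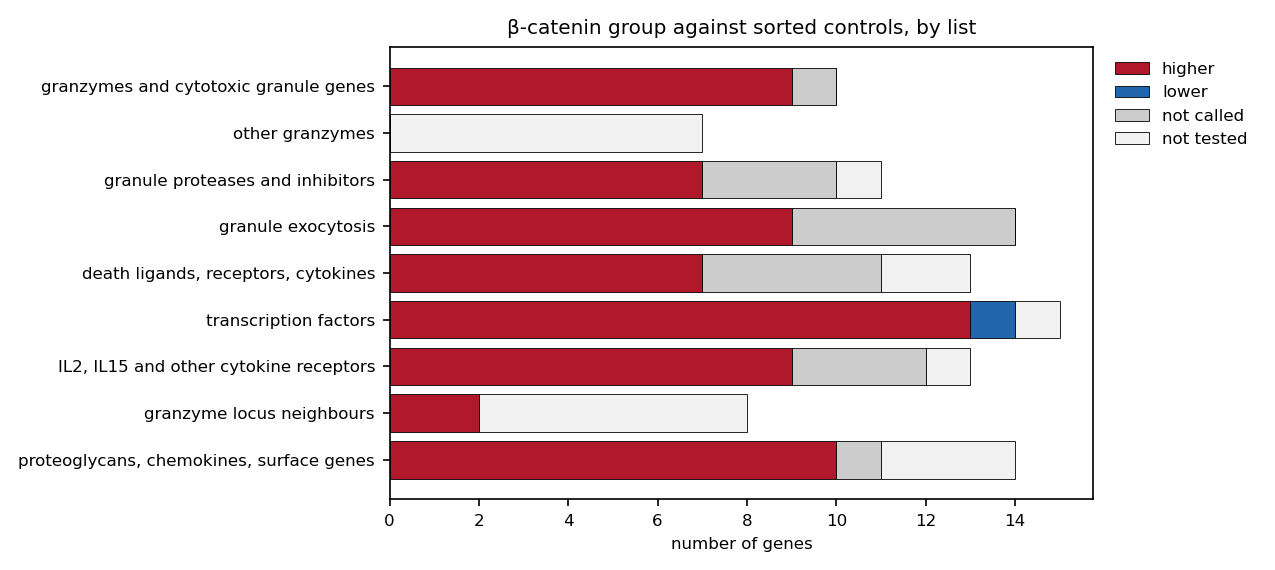
Number of genes per list that rose, fell, were not called or could not be tested in the β-catenin group against the sorted controls. Zeb2 is the one gene that fell, and no other granzyme gene could be tested.

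The second comparison asked what GSK3 inhibition does in unsorted wildtype cultures. Gzmc was lower with the inhibitor in all 3 pairs of cultures, while its neighbour Gzmb was not. It stood at 2.54, 55.9 and 6.45 FPKM in inhibitor libraries 242, 249 and 251, against 31.7, 477 and 83.4 FPKM in untreated libraries of the same numbers. Gzmc was thus 12.5-, 8.54- and 12.9-fold lower with the inhibitor in pairs 242, 249 and 251. The groups overlapped, because both libraries numbered 249 were high.

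With limma, 0 of the 7 tested granule genes were called (2 at an unadjusted p under 0.05, Gzmc and Srgn), and with voom 0 of 7. Over all 12685 tested genes 18.1% were called (8.47% higher, 9.60% lower). Libraries with the same number deviated from their group means together, so the number was used to pair them. With the number as a block 5 of the 7 were called, against 30.1% of all tested genes in that fit (16.0% lower, 14.1% higher). Gzmc fell in the blocked fit by 3.26 ± 0.12 (log2FC ± SE, 3 pairs, limma adjusted p = 1.34e-05). The unblocked value was -3.26 ± 1.29 (adjusted p = 0.138). Without both libraries numbered 249, 4 of 7 tested granule genes were called in the unblocked fit, among them Gzmc (log2FC -3.36, adjusted p = 0.0045). Over all tested genes 2365 were called in that fit.

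Gzmb stood at 15.6, 71.1 and 17.6 FPKM in inhibitor libraries 242, 249 and 251, against 6.39, 84.4 and 21.5 FPKM in the untreated libraries. It was higher with the inhibitor in pair 242 and lower in the other 2, and it was not called with or without the block (log2FC 0.22 ± 0.96 SE without it, adjusted p = 0.908; 0.594 with it). The mean FPKM was slightly lower with the inhibitor (34.7 against 37.4 FPKM), so the mean and the log2FC differ in sign. The ratio of Gzmc to Gzmb was 0.163, 0.787 and 0.367 in inhibitor libraries 242, 249 and 251. It was 4.96, 5.65 and 3.89 in untreated libraries, 4.95 to 6.14 in β-catenin libraries and 4.89 to 7.38 in sorted controls. Only the inhibitor libraries had less Gzmc than Gzmb.

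**Figure D5:**
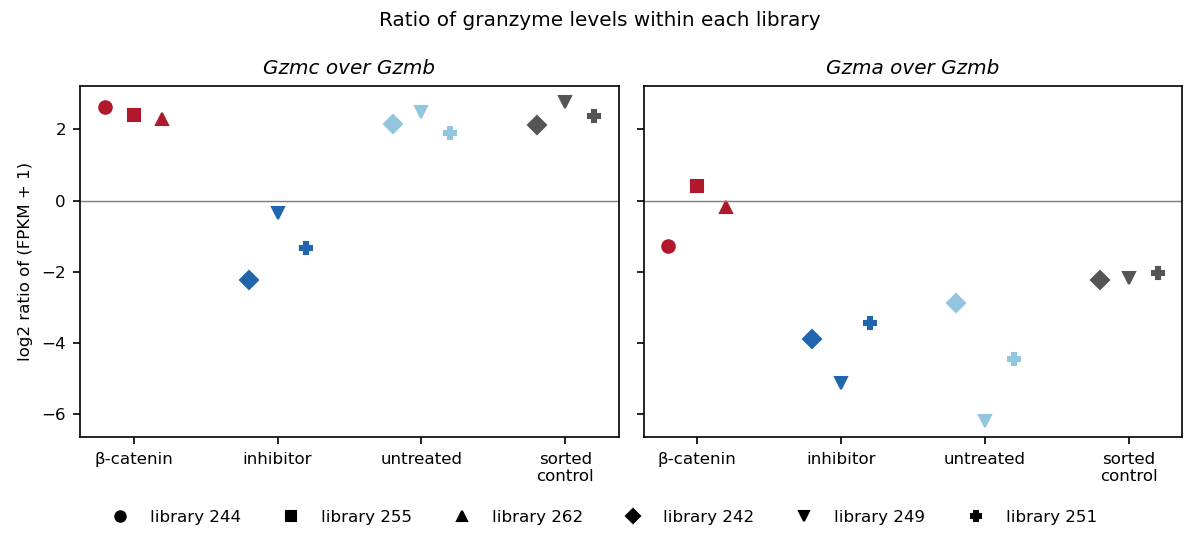
Log2 ratio of Gzmc to Gzmb (left) and of Gzma to Gzmb (right) within each library, from FPKM + 1. The inhibitor libraries lie below 0 for Gzmc over Gzmb, whereas the other 9 libraries lie near 2 or above. For Gzma over Gzmb all unsorted libraries lie below all sorted controls.

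Gzma was near its limit of detection in both unsorted groups. It stood at 0.118, 1.08 and 0.710 FPKM in inhibitor libraries (5, 36 and 24 fragments), against 0, 0.160 and 0.0306 FPKM in untreated libraries (0, 6 and 1 fragments). A count of 0 in untreated library 242 allows up to 0.0807 FPKM (3 fragments, counting error only). The inhibitor library was higher in each of the 3 pairs, but Gzma did not pass the filter, and without a filter it was not called (limma adjusted p = 0.261). Untreated library 249 held 19055 Gzmc and 5117 Gzmb fragments beside its 6 Gzma fragments.

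Prf1 was at most 0.535 FPKM in all 6 unsorted libraries. It stood at 0.223, 0.0128 and 0 FPKM in inhibitor libraries, where the 0 allows up to 0.0380 FPKM, against 0.0345, 0.535 and 0.0784 FPKM in untreated libraries. Fasl stood at 0.0177, 0.471 and 0.177 FPKM in inhibitor libraries, against 0.484, 0.778 and 0.229 FPKM in untreated libraries. Neither gene could be tested, and Fasl was lower with the inhibitor in each pair.

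Nkg7 stood at 0.834, 6.97 and 2.90 FPKM in inhibitor libraries, against 1.76, 26.4 and 4.61 FPKM in untreated libraries. It was lower in all 3 pairs and was called with the block (log2FC -0.96 ± 0.28 SE, adjusted p = 0.0376) but not without it (adjusted p = 0.526). Ctsw stood at 2.13, 10.7 and 2.93 FPKM in inhibitor libraries and at 5.52, 35.6 and 10.2 FPKM in untreated libraries, 2.60-, 3.32- and 3.48-fold lower with the inhibitor. It was called with the block (-1.40 ± 0.18, adjusted p = 0.00135) but not without it (0.254). Il2rb stood at 1.96, 17.3 and 2.20 FPKM in inhibitor libraries, against 5.12, 43.3 and 10.3 FPKM in untreated libraries, 2.61-, 2.50- and 4.68-fold lower. It was called with the block (-1.38 ± 0.19, adjusted p = 0.00204) and not without it (0.377).

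Srgn went the other way. It stood at 479, 441 and 497 FPKM in inhibitor libraries, against 326, 419.7 and 329.7 FPKM in untreated libraries, and the groups did not overlap (17.3% of tested genes were higher and 20.8% lower in that way). The difference was called with the block (log2FC 0.41 ± 0.12 SE, adjusted p = 0.0411) and not without it (0.0725). Serpinb9 stood at 0.823, 8.52 and 1.22 FPKM in inhibitor libraries and at 1.51, 7.46 and 1.99 FPKM in untreated libraries, lower in 2 of 3 pairs, and was not called (adjusted p = 0.862, or 0.455 with the block). Over the 10 genes, 5 were lower in all 3 pairs, 2 were higher in all 3 and 3 were mixed. Over all tested genes 32.3% were lower and 28.4% higher in all 3 pairs.

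Markers of other cell types differed between these groups as well. The NK and ILC1 markers summed to 7.36, 35.9 and 10.97 FPKM in inhibitor libraries 242, 249 and 251, against 10.5, 79.9 and 24.8 FPKM in untreated libraries, with Klra8 at 0 in all 6. Of the 5 NK and ILC1 markers tested 1 fell, and 4 fell with the block (0 of 2 tested were called without both libraries numbered 249). Klrb1c, the gene of the NK1.1 antigen, stood at 0, 0.0545 and 0.108 FPKM in inhibitor libraries, against 1.32, 11.4 and 2.74 FPKM in untreated libraries. The T cell markers summed to 361 to 524 FPKM in inhibitor libraries and to 223 to 264 FPKM in untreated libraries, and 4 of 6 tested rose, with and without the block. The mast cell and basophil markers summed to 147, 1215 and 201 FPKM in inhibitor libraries and to 266, 2070 and 447 FPKM in untreated libraries. B cell precursor markers summed to 1138 to 2031 FPKM in inhibitor libraries, against 5837 to 7870 FPKM in untreated libraries. The part of these cells in the granule gene levels was not tested.

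In the fit of this comparison without the block, 8.47% of all tested genes rose and 9.6% fell. In the pathway lists of that fit, 2 of 10 tested proteases and inhibitors rose and 0 fell, Ctsh (log2FC 4.07, adjusted p = 0.0350) and Serpinb1a (2.19, 0.00129). Of the exocytosis genes 3 of 14 rose and 0 fell, among them the lysosomal membrane gene Lamp2 (2.31, 0.000947) and Arl8b (1.58, 0.00127). Of death ligands, receptors, caspases and cytokines 0 of 12 rose and 2 fell, lymphotoxin α (Lta, -2.59, 0.00272) and Casp8 (-0.59, 0.0188). Of the transcription factors 4 of 13 rose and 1 fell, with Prdm1 (4.04, 0.000674) and Stat5a (1.43, 0.00106) higher and Zeb2 (-1.92, 0.0189) lower. Of the cytokine receptor list 0 of 12 rose and 1 fell, the kinase gene Jak3 (-0.45, 0.0473). Of the surface and chemokine genes 0 of 10 rose and 2 fell, Xcl1 (-3.01, 0.0475) and Cd2 (-2.18, 0.00737). Xcl1, a chemokine gene of NK and T cells, stood at 0.0398, 2.26 and 0 FPKM in inhibitor libraries, against 4.65, 37.2 and 7.18 FPKM in untreated libraries, and so moved as Gzmc did. Its call ended without the inhibitor library 242 (adjusted p = 0.144) or 251 (0.146), and without any of the 3 untreated libraries (0.0629 to 0.101). Ctsh, Casp8 and Zeb2 also lost their calls without inhibitor library 242 (7 named genes, adjusted p 0.0560 to 0.144) or 251 (7 genes, 0.0511 to 0.146). Some of the same named genes lost theirs without inhibitor library 249 (3 genes, 0.0540 to 0.0706) and without untreated library 242 (6, 0.0578 to 0.115), 249 (4, 0.0506 to 0.133) or 251 (6, 0.0780 to 0.121). With the library number as a block, 14.1% of all tested genes rose and 16% fell. Of the lists, 8 of 10 proteases and inhibitors and 5 of 14 exocytosis genes then rose and 0 fell. In that fit the death ligand list had 1 higher and 4 lower of 12, the transcription factors 5 higher and 2 lower of 13, the cytokine receptor list 2 higher and 1 lower of 12 and the surface list 0 higher and 4 lower of 10. Without both libraries numbered 249, in the fit without the block, 2365 genes were called in either direction over all tested genes. The list counts there were 6 higher and 0 lower of 9 proteases and inhibitors and 4 higher and 1 lower of 13 exocytosis genes. They were 0 higher and 4 lower of 12 in the death ligand list, 4 and 1 of 9 transcription factors, 2 and 2 of 11 in the cytokine receptor list and 0 and 1 of 8 surface genes. With the block Ctsh (0.00421), Casp8 (0.00446), Zeb2 (0.000986) and Xcl1 (0.000231) were called.

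The untreated cultures were also set against the sorted controls, which carry the same numbers and differ by the sort and by the overnight culture, which cannot be told apart. Of the 7 granule genes tested 0 were called with limma (0 at an unadjusted p under 0.05) and 0 with voom, against 8.30% of 12513 genes (4.29% higher, 4.01% lower; 2.83% with the number as a block). Gzmb, Gzmc, Nkg7, Ctsw and Il2rb were highest in untreated library 249 (84.4, 477, 26.4, 35.6 and 43.3 FPKM), while in untreated library 242 they were 6.39, 31.7, 1.76, 5.52 and 5.12 FPKM, against 6.82, 33.4, 3.41, 3.40 and 3.89 FPKM in sorted control 242. Gzma was lower without overlap, at 0 to 0.160 FPKM in untreated libraries against 0.357 to 1.53 FPKM in sorted controls (18.1% of tested genes were lower and 17.8% higher in that way). Prf1 was likewise lower without overlap, at 0.0345 to 0.535 FPKM in untreated libraries against 0.594 to 0.942 FPKM in sorted controls. Neither passed the filter, and without a filter neither was called (limma adjusted p = 0.170 for Gzma and 0.201 for Prf1). Untreated library 249 reached 0.737 of the Gzmc level and 0.691 of the Gzmb level of β-catenin library 255, but 0.000992 of its Gzma level. In the pathway lists Stxbp2 (log2FC 0.38, adjusted p = 0.0348), Vamp8 (0.61, 0.0348), Gata3 (2.15, 0.0314), Il7r (1.38, 0.0013) and Cma1 (4.65, 0.0304) rose and Bid (-0.55, 0.0223) fell. Without untreated library 249, 3 of 13 exocytosis genes, 1 of 10 proteases and inhibitors and 1 of 8 transcription factors rose, while 2 of 11 of the death ligand list, 2 transcription factors and 1 of 9 surface genes fell. Of the 6 genes named, all but Il7r lost their call without sorted control 242 (adjusted p 0.0796 to 0.121), 249 (0.0781 to 0.114) or 251 (0.116 to 0.145), and 4 without untreated library 251 (0.0502 to 0.0760).

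The effect of stabilised β-catenin minus the effect of the inhibitor was tested in a fit of all 12 libraries, which ignored the library pairs. It was above 0 for 7 of 10 granule genes, against 6.07% of 13861 tested genes in that direction (3.05% below 0, 9.12% in either). Gzma, Prf1 and Fasl passed the filter of that fit only through β-catenin libraries, so they had to be high there to be tested. The difference was 8.52 ± 1.68 for Gzmc (log2 ± SE, adjusted p = 0.0157), 6.46 ± 0.46 for Gzma (0.000144) and 5.03 ± 1.31 for Gzmb (0.0409). It was 7.09 ± 1.25 for Il2rb (0.0103), 6.90 ± 1.04 for Ctsw (0.00491), 6.17 ± 1.22 for Nkg7 (0.0153) and 3.66 ± 0.71 for Fasl (0.0143). Prf1 (2.11 ± 0.76, 0.107), Serpinb9 (2.06 ± 0.94, 0.192) and Srgn (0.55 ± 0.16, 0.0643) were not called. With voom 3 of 10 were called, Gzmc, Ctsw and Il2rb. The call of Gzmb ended without β-catenin library 244 (adjusted p = 0.0660) or 262 (0.0827), without any sorted control (0.0733 to 0.103), without inhibitor library 242 (0.0972) or 251 (0.0968) and without untreated library 249 (0.0742) or 251 (0.0806). Over all genes 841 differences were called above and 423 below 0, but 583 and 541 after median centring and 659 and 532 after quantile normalization. Without library 244 and both unsorted libraries numbered 249, 7 of the 8 granule genes that could be tested were called.

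In the same fit, 6.07% of all tested genes were called above 0 and 3.05% below. Of the lists, 7 of 14 tested transcription factors were called above 0 and 0 below, and so were 5 of 12 genes of the cytokine receptor list and 7 of 11 surface and chemokine genes. Eomes and Crtam of these lists could be tested there only through β-catenin libraries. Of the exocytosis genes 2 of 14 were above and 1, Lamp2, below. With voom 3 of 14 transcription factors, 1 of 12 cytokine receptor genes and 2 of 11 surface genes were called above 0, and 10 named genes lost their call (adjusted p 0.0556 to 0.107). Without library 244, 4 of 13 transcription factors, 5 of 12 cytokine receptor genes and 7 of 11 surface genes were above 0, and without both unsorted libraries numbered 249 the counts were 7 of 14, 7 of 12 and 10 of 11. The order of the 4 groups by mean level differed between members. Gzmc averaged 2346 ± 2395 FPKM in β-catenin, 21.6 ± 29.7 in inhibitor and 197 ± 244 in untreated libraries, and 46.0 ± 26.7 FPKM in sorted controls (SD, n = 3 each). Gzma averaged 245 ± 91.3 FPKM in β-catenin, 0.636 ± 0.484 in inhibitor and 0.0635 ± 0.0849 in untreated libraries, and 0.852 ± 0.610 FPKM in sorted controls. For Gzmc the inhibitor, untreated and sorted control libraries overlapped in range, whereas for Gzma the untreated libraries lay below the sorted controls and the inhibitor libraries overlapped both.

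For 3 of the members the genes with the most similar profile were sought among 11449 protein coding genes at 1 FPKM or more in at least 3 libraries. The measure was the root mean square difference of log2(FPKM + 1), each profile centred on its mean over the 12 libraries. The closest to Gzmb were Cd96 (0.314), Skap1 (0.334), Cd160 (0.344), Cd226 (0.361) and Hic1 (0.417). Nearest to Prf1 were Slc16a11 (0.315), Tnfsf10 (0.322), Chl1 (0.323), Slc26a10 (0.333) and Ccl1 (0.360). None of the searched genes came that close to Gzma, whose nearest among them were Klrk1 (1.18), Klrd1 (1.24), Ccl5 (1.28), Cd7 (1.34) and Cd3g (1.37). Of the granule genes, Nkg7 was nearest to Gzma (1.35). The measure grows with the size of a gene's changes, so distances of different members are not directly comparable. These distances describe 12 libraries of 4 groups and carry no test.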

How the data were processed

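The authors deposited 1 table of FPKM values for 47069 genes in 12 libraries of bulk RNA. Per the submitters' processing notes, the tools were HISAT2, HTSeq and Cufflinks on GRCm38 (mm10). Their settings, strand use and gene lengths are stated nowhere in the labels. Within a gene the values are whole multiples of 1 step per library, and whole fragments were recovered from them for 25186 genes (100% of these values rebuilt within a relative tolerance of 1e-08), failing for 0. Another 18793 genes were at 0 and 3090 above 0 in 1 library only. Depth was 31.9 M to 49.8 M counted fragments (M for mega), and limits from counts of 0 cover counting error only. Coordinates are from GENCODE M21 and promoters from RefSeq.

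Tests used limma 3.58.1 in R 4.3.3 (lmFit, eBayes with trend, 2-sided) on log2(FPKM + 1), a scale that understates changes of low genes, for genes at 1 FPKM or more in at least 3 libraries of the fit. P-values were adjusted by Benjamini-Hochberg over all tested genes, and under 0.05 counted as a call. Fits held the 6 libraries compared, and the difference of effects all 12. Both steps were tested on simulated data. Tables and figures used Python 3.11.15, numpy 2.4.6, pandas 2.3.3 and matplotlib 3.10.9.

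Deviations of inhibitor and untreated libraries from their group means correlated at 0.609 (number 242), 0.77 (249) and 0.36 (251) over 12685 genes. Each was above the threshold of 0.1, so these numbers were used as pairs. Inhibitor 251 also correlated with untreated 242 (0.383), and inhibitor 242 with untreated 251 (0.253). The correlation therefore does not single out the pair 251. Pairs of unlike numbers that included 249 were negative (-0.657 to -0.386). Untreated and sorted control libraries share only a number.

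The 10 genes, the lists and the rule for named genes were chosen with earlier results of these data known. The rule named up to 4 called genes per list with the largest changes and 5 nearest profiles for Gzma, Gzmb and Prf1. Alternatives were voom on recovered fragments, all 12 libraries in 1 fit, a block for the library number, median centring, quantile normalization, filters of 5 FPKM or none, a pseudocount of 0.1, and fits without single libraries or without the unsorted pair numbered 249. Leaving out library 244 or the 249 libraries with a filter of 2 libraries, and 244 together with the 249 libraries, were added after seeing the data.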

Additional observations from a re-analysis of the deposited data

Results flagged for a closer look

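The effect of stabilised β-catenin and that of GSK3 inhibition differed, by a test of the difference itself, for 7 of the 10 granule genes. The β-catenin effect minus the inhibitor effect on the log2 scale was 6.46 for Gzma (limma adjusted p = 0.000144), 5.03 for Gzmb (0.0409), 8.52 for Gzmc (0.0157), 6.17 for Nkg7 (0.0153), 6.90 for Ctsw (0.00491), 3.66 for Fasl (0.0143) and 7.09 for Il2rb (0.0103). Each gene was higher in all 3 β-catenin libraries than in all 3 sorted controls. Inhibitor and untreated libraries, taken as groups without their pairs, overlapped for all 7. By pair, Gzmc, Nkg7, Ctsw, Il2rb and Fasl were lower with the inhibitor in all 3. Gzma was higher in all 3 pairs and Gzmb was mixed. With the library number as a block, Gzmc, Nkg7, Ctsw and Il2rb were called lower, while the test of the difference ignored the pairs. With voom the difference held for Gzmc, Ctsw and Il2rb and was lost for Gzma (0.201), Gzmb (0.0934), Nkg7 (0.0957) and Fasl (0.139). Gzma and Fasl passed the filter only through β-catenin libraries, so they had to be high there to be tested. The 2 effects were measured in sorted and in unsorted cells, and the part of the sort in the difference was not tested.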

How the results depend on the processing

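All directions of the 10 genes in the β-catenin comparison held under every alternative that tested them, and 7 to 10 genes were called. Over all genes, leaving out 1 library gave 1535 (without sorted control 251) to 5002 calls against 4656, and 2061 without library 262, 1974 without sorted control 242 and 2004 without 249. In the inhibitor comparison 0 granule genes were called, but 1 with all 12 libraries, 5 with the replicate block, 4 without both libraries numbered 249 (4 also with the filter of 2 libraries) and 0 to 1 without single libraries (Gzmc without inhibitor library 249, adjusted p = 0.0378; Srgn without untreated library 249, 0.0296). All-gene calls there were 2292, 3816 with the block, and 1023 to 2200 without single libraries, with 1023 without inhibitor 242, 1147 without 251, 1087 without untreated 242 and 1077 without 251. The log2FC of Gzmb ran from -0.64 (without untreated 242; -0.46 without inhibitor 249) to 1.13 and that of Serpinb9 from -0.99 to 0.30 (without untreated 249; 0.20 and 0.06 without inhibitor 242 and 251). Between untreated libraries and sorted controls, where same numbers only share a number (r = 0.143, 0.123 and 0.000511), 0 granule genes were called throughout, also with the replicate block. All-gene calls were 1039, then 522 with all 12 libraries, 352 without a filter, 354 with the block and 23 (without sorted control 251) to 1085 without single libraries, including 130 and 82 without sorted controls 242 and 249 and 241 without untreated 251. Nkg7 had a log2FC of -0.35 and Serpinb9 of -0.43 without untreated 249, and the same without both 249 libraries; single libraries left out gave up to 1.30 and 0.45. For the difference of effects, voom called 3 granule genes, against 7, and single libraries left out gave 5 to 8. All-gene calls were 1264, then 808 without a filter, 611 with voom, 1947 without 244 and both 249 libraries, and 479 (without sorted control 251) to 1997 (without inhibitor 249). They were 480 without 262, 598 and 516 without sorted controls 242 and 249, 551 and 600 without inhibitor 242 and 251, and 708 and 671 without untreated 249 and 251. The cause of these shifts was not tested. Depth limits Gzma, Prf1 and Fasl in unsorted cultures, where counts were 0 to 47 fragments.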
